A study of Mus musculus with 56 samples.

Results

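Selenow, Selenon, Selenop, Selenom, Selenok, Gpx1, Gpx3, Gpx4, Txnrd1 and Txnrd2 encode proteins that carry selenocysteine. They are 10 of the 15539 genes in a table of read counts from the gastrocnemius, a calf muscle of mixed but mainly fast fibres, of 56 mice. The genes were chosen by name as a list of selenoprotein genes, and the list was selected on a measured value, the lower Selenow counts of running females labelled HuRm-/- than of running control females in earlier results of these data. That comparison is therefore given for these genes as values without a test.

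The mice were C57Bl/6 and fell into 8 groups of 7. HuR, encoded by Elavl1, is an RNA-binding protein that stabilises many mRNAs. In the mice labelled as HuR skeletal muscle knockouts, written HuRm-/-, floxed Elavl1 is combined with Cre recombinase driven by the promoter of Mlc1f, a fast fibre myosin light chain gene now called Myl1, and the controls are floxed littermates without Cre (HuRfl/fl). Groups are named by sex (M or F), genotype (C for control, H for labelled HuRm-/-) and wheel (E for a running wheel, no letter for a locked wheel), which gives MC, MCE, MH, MHE, FC, FCE, FH and FHE. All mice were given chow, the age on the labels is 5 months, and wheels were present from 10 to 20 weeks of age. Cre acts in fibres that use this promoter, so by design other cells of the muscle keep HuR. Which fibres lost it was not measured here.

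Selenocysteine is inserted at a UGA codon that would otherwise end translation. Insertion needs a hairpin in the same mRNA, the SECIS element, the protein Secisbp2 that binds it, and a dedicated tRNA. Most of these proteins are oxidoreductases whose selenocysteine takes part in catalysis, and in muscle the family is known from myopathies of selenium deficiency and from the congenital myopathy caused by loss of selenoprotein N. When selenium is short, cells keep some selenoprotein mRNAs and lose others by nonsense-mediated decay, for which Gpx1 and Selenow are textbook examples.

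The selenocysteine codon is what defines these genes, so its surroundings are shown for the members the results turn on. Each line gives the coding strand, 5′ to 3′, with the recoded TGA in capitals, from GRCm38 with GENCODE M21 gene models. Codons are counted from the start codon of the longest annotated reading frame. In Selenow the codon is number 13 of 88 (chr7:15920464-15920466, minus strand). In Gpx1 it is 47 of 201 (chr9:108339451-108339453), in Gpx3 73 of 226 (chr11:54907256-54907258), and in Gpx4 129 of 253 (chr10:80054737-80054739), all on the plus strand. Selenop has 10 such codons in 380, and its first, number 59, is shown (chr15:3274848-3274850, plus strand). In Txnrd1 the codon is number 612 of 613 (chr10:82896037-82896039, plus strand), so that only 1 sense codon and the stop follow it.
Selenow: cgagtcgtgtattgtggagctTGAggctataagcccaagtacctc
Gpx1: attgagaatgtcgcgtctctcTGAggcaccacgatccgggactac
Gpx3: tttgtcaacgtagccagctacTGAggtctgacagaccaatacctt
Gpx4: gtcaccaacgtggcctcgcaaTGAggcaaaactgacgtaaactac
Selenop: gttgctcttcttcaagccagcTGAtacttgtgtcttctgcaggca
Txnrd1: gacatcctccagtctggctgcTGAggt

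The other members were placed in the same way. The codon is number 428 of 557 in Selenon, 48 of 145 in Selenom, 92 of 94 in Selenok and 526 of 527 in Txnrd2. The glutathione peroxidases thus carry it inside the protein, while Selenok and both thioredoxin reductases carry it at the carboxyl end.

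Total counts ran from 6639782 to 21633091 per mouse, with a median of 12380363. Levels below are normalized CPM, which are counts scaled to the same library total after that total is corrected by its TMM factor. They are compared between mice for the same gene and not between genes, since the counts are not set against length. Elavl1 was not called lower in any genotype comparison, with group medians of 50.5 and 61.3 CPM in MH and MHE against 53.9 and 54.3 CPM in MC and MCE, and with 47.9 and 52.8 CPM in FH and FHE against 44.5 and 51.5 CPM in FC and FCE. In MHE minus MCE Elavl1 was called higher, by 0.44 ± 0.11 (adjusted p = 0.0242), and the genotype average was 0.17 ± 0.07 (adjusted p = 0.105). Reads that come only from the 3′ end, outside the deleted part of the gene, would not show the deletion, and whether these reads do is not settled by the sources used here, so these counts do not check the genotypes. Myl1 was lower in the mice labelled HuRm-/-, by −0.64 ± 0.13 (SE) on the log2 scale averaged over MH, FH and MHE (adjusted p = 0.000617). In 7 of those 28 mice, MH8, MH12, MHE4, FH31, FH34, FHE7 and FHE10, Myl1 was at or above the level of the lowest control mouse of the same sex and wheel, and the genotype averages of Selenow, Gpx3 and Gpx4 are given with and without them. FC15 had the highest summed liver markers, at 3260 CPM, against a group median of 134 CPM.

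All 10 genes passed the filter on low counts that left 14321 genes. The counts per mouse ran from 1344 to 5783 for Selenow and from 920 to 4085 for Gpx3 at the upper end, and from 18 to 98 for Selenon at the lower end, so counting error weighs most on Selenon. Over the 56 mice the highest value was 5.78 times the lowest for Gpx3, 4.19 times for Gpx4 and 3.42 times for Selenop, but 1.89 times for Selenok and 1.88 times for Txnrd2.

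**Figure D1:**
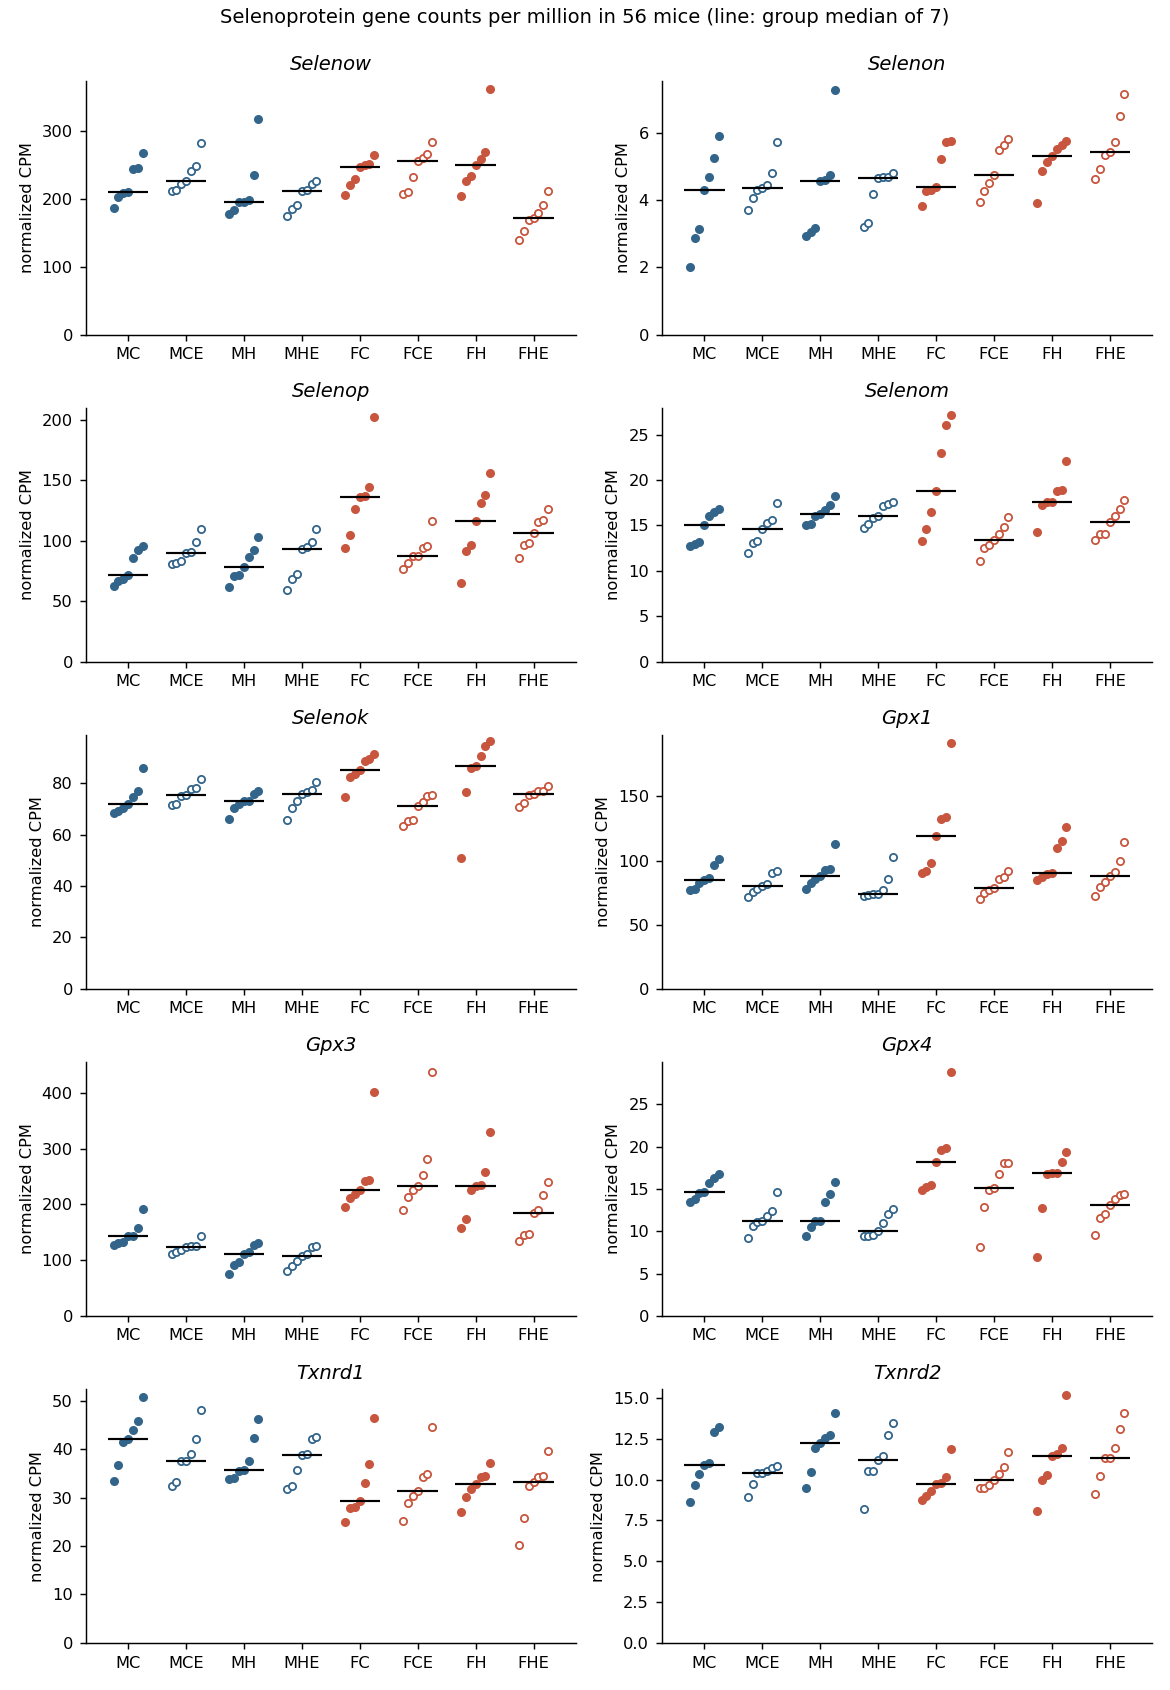
Normalized CPM (vertical axis, linear from 0) of each of the 10 selenoprotein genes in each mouse of the 8 groups (horizontal axis). Points are mice, blue for males and red for females, filled for locked and open for running wheels, and lines are medians of 7. Gpx3 in females lies above that in males of the same genotype and wheel in all 4 pairs of groups, and Selenow is lowest in FHE, with 4 of 7 mice below every other mouse.

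Selenow encodes a small cytosolic selenoprotein with a thioredoxin-like fold that is abundant in skeletal muscle (chr7:15917208-15922402, minus strand). The groups by median were FCE, FH, FC, MCE, MHE, MC, MH and FHE, from highest to lowest. In FHE the lowest, median and highest values were 140.1, 172 and 212 CPM. In FCE they were 207, 256 and 285 CPM. In 6 of 7 FHE mice Selenow was below all 7 FCE mice, and in 4 of 7 it was below all 49 mice of the other groups, the lowest of which had 175 CPM. The fitted difference FHE minus FCE was −0.50 ± 0.10 (SE) on the log2 scale, which is the value that brought the gene into view, and it has no test here. Against FH, whose lowest, median and highest values were 205, 249.8 and 363 CPM, the difference was −0.57 ± 0.10, again with 6 of 7 FHE mice below all 7 FH mice and again untested because it uses the same FHE mice.

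In the other 5 groups Selenow ran from 175 to 318 CPM. MC had 187, 211 and 268 CPM and MCE had 212, 227 and 283 CPM as lowest, median and highest. MH had 178, 196 and 318 CPM and MHE 175, 211 and 227 CPM. FC had 206, 248 and 265 CPM. Neighbouring groups in this order overlapped, and in the 7 comparisons that use neither FHE nor FCE mice Selenow was not called in any, with differences from −0.21 (MHE minus MCE, adjusted p = 0.308) to 0.27 (FH minus MH, adjusted p = 0.0505). The genotype difference averaged over MH minus MC, FH minus FC and MHE minus MCE was −0.06 ± 0.06, with a 95% interval from −0.18 to 0.06 (adjusted p = 0.597). Marker lists were compared in the mean log2 level over their genes. Skeletal muscle markers were lower in FHE than in FCE by 0.16 (adjusted p = 0.0366) and fast fibre markers by 0.12 (adjusted p = 0.0496). Slow fibre and fibroblast markers were each higher by 0.38 (adjusted p = 0.0395 for both). All are exact two-sided permutation tests over 3432 splits, adjusted over 120 tests. The part of these markers in the Selenow values was not tested. In bulk muscle, fewer fibres of a type and less RNA per fibre cannot be told apart.

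Selenow moved with Myl1 from mouse to mouse inside the groups. With the group mean taken from each log2 value, Pearson's r was 0.74 and Spearman's rho 0.76 over the 56 mice, a description for which Myl1 was chosen after its values were seen. The r was 0.80 in the 28 control mice and 0.79 in the 28 mice labelled HuRm-/-, and leaving out the pair of mice farthest from the median of Myl1 left 0.80 in the former and 0.77 in the latter. The same libraries and normalization give both genes, and for Gpx3 the r with Myl1 was 0.04 in the control mice and 0.61 in the mice labelled HuRm-/-. FH34 and MH12 had the highest Selenow of all mice, at 363 and 318 CPM, and also the highest Myl1 of their groups. Leaving out the 7 mice labelled HuRm-/- with Myl1 in the control range gave a genotype average of −0.16 ± 0.05, a description without a test, since the mice were chosen on a gene that moves with Selenow and leaving them out tends to lower Selenow by construction.

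**Figure D2:**
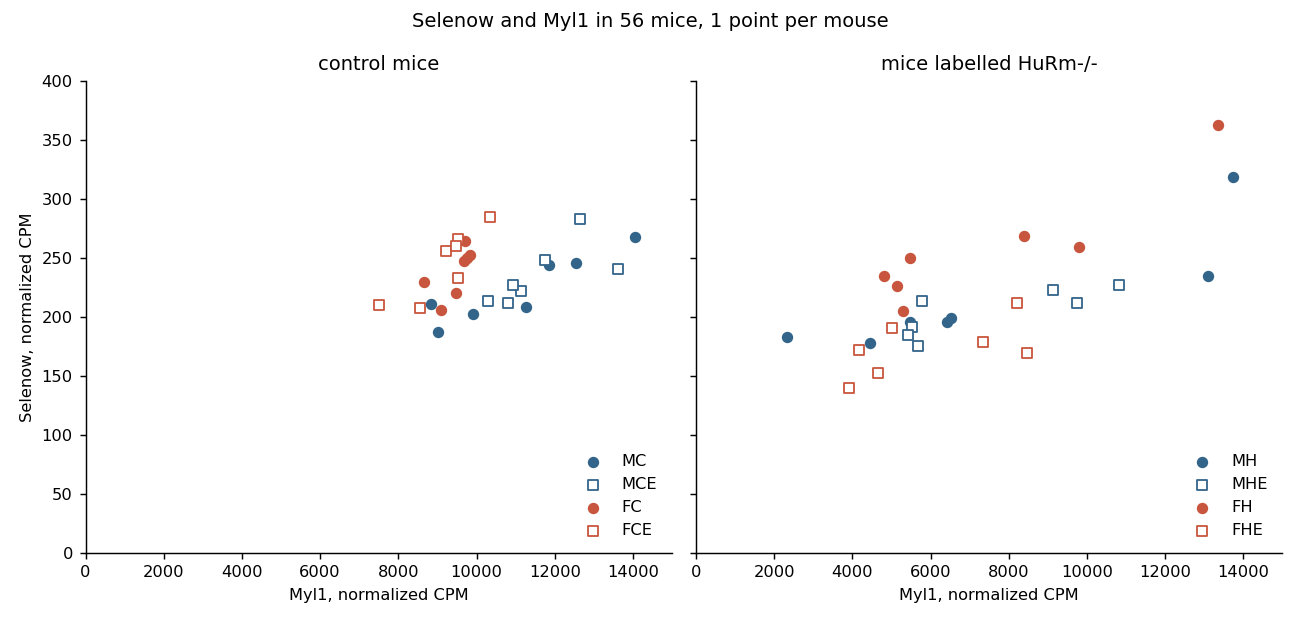
Normalized CPM of Selenow (vertical axis, linear from 0) against normalized CPM of Myl1 (horizontal axis, linear from 0), 1 point per mouse, control mice on the left and mice labelled HuRm-/- on the right, with blue for males, red for females, filled circles for locked and open squares for running wheels. Points rise to the right in both panels, with r = 0.80 and 0.79 after the group means are removed, and 4 of the 7 FHE mice lie below every other mouse.

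Gpx3, the glutathione peroxidase that is secreted into plasma and extracellular space, was higher in females in every stratum (chr11:54902453-54910377, plus strand). In MC the lowest, median and highest values were 127, 143 and 191 CPM, and in FC they were 195, 225 and 401 CPM. In the running controls they were 111, 124 and 143 CPM in MCE and 189.5, 232 and 437 CPM in FCE. No female group overlapped the male group of the same genotype and wheel. The same held in the mice labelled HuRm-/-, with 75.5, 111 and 131 CPM in MH against 157, 233 and 329 CPM in FH. The running mice with that label had 79.6, 107 and 125 CPM in MHE and 134, 184 and 240.4 CPM in FHE. On the log2 scale females were higher by 0.73 ± 0.15 in FC minus MC (adjusted p = 0.000193), 1.04 ± 0.15 in FCE minus MCE (adjusted p = 6.72e-07), 1.10 ± 0.15 in FH minus MH (adjusted p = 1.73e-07) and 0.76 ± 0.15 in FHE minus MHE (adjusted p = 0.000521). Groups without overlap were seen in these comparisons for 6.98%, 2.97%, 3.21% and 1.83% of the 14321 genes.

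Gpx3 was also the member with a genotype call. Averaged over the 3 genotype comparisons without FHE and FCE mice it was lower in mice labelled HuRm-/- by −0.27 ± 0.09 (95% interval −0.45 to −0.10, adjusted p = 0.0318), which made it 1 of 10 members in a comparison that called 10.3% of all genes. None of the single comparisons passed, with −0.47 ± 0.15 in males on locked wheels (adjusted p = 0.106), −0.24 ± 0.15 in running males (adjusted p = 0.488) and −0.10 ± 0.14 in females on locked wheels (adjusted p = 0.804). In FHE minus FCE the difference was −0.52 ± 0.15, given without a test, and 5 of 7 FHE mice were below all FCE mice. Gpx4 was not called in the same average with all mice, at −0.26 ± 0.09 (adjusted p = 0.0682). Without the 7 mice with Myl1 in the control range the average was −0.34 ± 0.09 for Gpx3 and −0.25 ± 0.09 for Gpx4. The values without the 7 mice are descriptions without a test, since the mice were left out on Myl1, with which Gpx3 moves in the mice labelled HuRm-/-. The call of Gpx3 was lost without FC20, the FC mouse with the highest Gpx3 (−0.23, adjusted p = 0.0604), or without FH17, FH19, MC20, MH9, MH11, MHE1 or MHE2, and under upper-quartile normalization (adjusted p = 0.0535) and DESeq2 (adjusted p = 0.0537).

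Selenop, the plasma protein that carries selenium between organs, and Gpx1, the cytosolic glutathione peroxidase, both had their highest group median in FC. Selenop (chr15:3268547-3280508, plus strand) had 94.3, 136 and 203 CPM as lowest, median and highest in FC, against 62.9, 71.5 and 95.3 CPM in MC and 76.5, 87.7 and 116 CPM in FCE. Of the 7 FC mice, 6 were above all MC mice, and of the 7 FCE mice, 5 were below all FC mice. Gpx1 (chr9:108338903-108340343, plus strand) had 90.5, 119 and 192 CPM in FC, against 77.0, 85.1 and 101 CPM in MC and 69.8, 78.6 and 92.0 CPM in FCE. In 6 of 7 FCE mice Gpx1 was below all FC mice, and in 4 of 7 FC mice it was above all MC mice.

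Running control females were lower than locked control females by −0.56 ± 0.11 for Gpx1 (adjusted p = 0.00111) and −0.54 ± 0.14 for Selenop (adjusted p = 0.0127), both on the log2 scale. A pair of endoplasmic reticulum genes fell with them. Selenom, which encodes a thioredoxin-fold protein of that compartment (chr11:3514684-3517351, plus strand), had 13.3, 18.8 and 27.1 CPM in FC and 11.1, 13.4 and 15.9 CPM in FCE, a difference of −0.50 ± 0.12 (adjusted p = 0.00454). Selenok, whose product is an endoplasmic reticulum membrane protein linked to protein palmitoylation and calcium flux (chr14:29968308-29975662, plus strand), had 74.6, 85.1 and 91.5 CPM in FC and 63.3, 71.0 and 75.4 CPM in FCE, a difference of −0.28 ± 0.08 (adjusted p = 0.0156). So 4 of the 9 members tested were lower in FCE than in FC and none was higher, where 8.74% of all genes were called and 4.23% were called lower. The members not called were Gpx4 (−0.37 ± 0.16, adjusted p = 0.145), Selenon, Gpx3, Txnrd1 and Txnrd2, the last 4 between 0.00 and 0.07.

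The control males are the counterpart of this comparison. Selenop was 80.7, 90.0 and 110.1 CPM in MCE against 62.9, 71.5 and 95.3 CPM in MC (0.24 ± 0.15, adjusted p = 0.446), and Gpx1 was 71.8, 80.1 and 91.9 CPM against 77.0, 85.1 and 101 CPM (−0.08 ± 0.11, adjusted p = 0.783). None of the 10 members was called in MCE minus MC by limma, edgeR's quasi-likelihood test or DESeq2, with 1 at an unadjusted p under 0.05, where limma called 3.24% of all genes. In the interaction, the wheel difference in control females less that in control males was −0.78 ± 0.21 for Selenop (adjusted p = 0.0104) and −0.48 ± 0.16 for Gpx1 (adjusted p = 0.0482), which is 2 of 9 members where 8.74% of all genes were called. Selenok (−0.33 ± 0.11, adjusted p = 0.0501) and Selenom (−0.46 ± 0.16, adjusted p = 0.0602) did not pass. The call of Gpx1 was lost in 20 of 28 fits that each left out 1 control mouse. FC15 had the highest Gpx1 and the highest Selenop of all mice, at 192 and 203 CPM. Without it the interaction was −0.35 (adjusted p = 0.123) for Gpx1 and −0.67 (adjusted p = 0.0249) for Selenop. The 4 wheel calls in females all held without FC15, at −0.45, −0.44, −0.55 and −0.31 for Gpx1, Selenop, Selenom and Selenok.

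Markers of other cells moved in the same mice. Ranges below are sums over a list, and differences are in the mean log2 level over its genes. Summed adipocyte markers (7 of 7 genes in the table) were 187 to 412 CPM in FC, 57.4 to 197 CPM in MC and 96.4 to 197 CPM in FCE, and the mean log2 level was 1.09 lower in FCE than in FC (adjusted p = 0.014, exact permutation test). Fibroblast markers (6 of 6 genes) were 1992 to 3375 CPM in FC and 1168 to 1846 CPM in FCE, 0.68 lower in FCE (adjusted p = 0.014, exact permutation test). Leukocyte markers were 0.73 lower (adjusted p = 0.0272) and erythroid markers 0.89 lower (adjusted p = 0.0878), while skeletal muscle markers were 0.32 higher (adjusted p = 0.0262) and fast fibre markers 0.14 higher (adjusted p = 0.035), all by the same exact test. Summed liver markers were 93.0 to 3260 CPM in FC and 11.7 to 162 CPM in FCE, a difference of −2.90 in mean log2 (adjusted p = 0.0262, exact permutation test), with 3 of the 12 genes at 0 in at least 1 FCE mouse. No adipocyte, fibroblast or leukocyte marker was at 0 in any of these mice, and the part of these cells in the 4 selenoprotein differences was not tested.

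**Figure D3:**
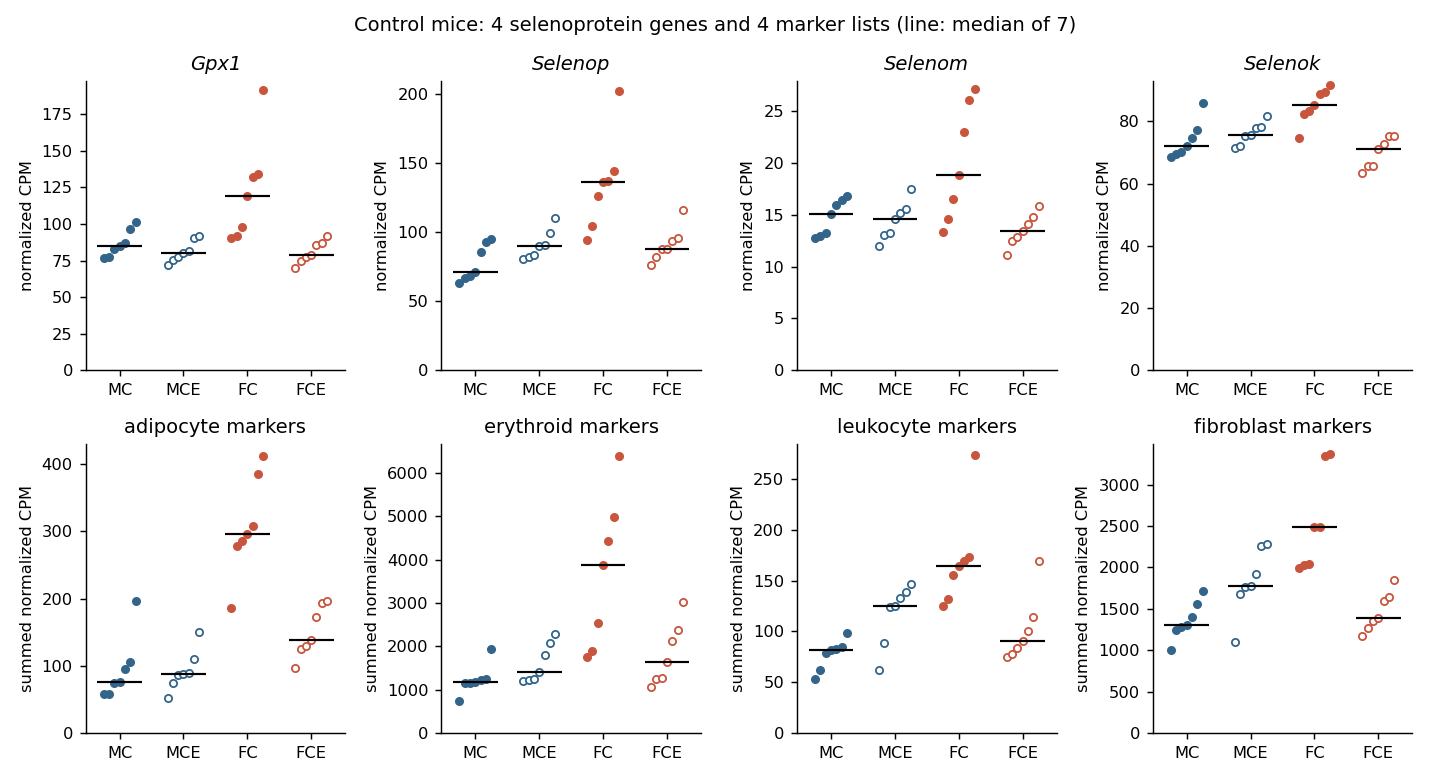
Control mice of the groups MC, MCE, FC and FCE (horizontal axis), with normalized CPM of Gpx1, Selenop, Selenom and Selenok (upper row) and summed normalized CPM of adipocyte, erythroid, leukocyte and fibroblast markers (lower row), all linear from 0. Points are mice, blue for males, red for females, open for running wheels, and lines are medians of 7. All 8 panels have their highest median in FC, with 136 CPM for Selenop and 297 CPM for the adipocyte markers.

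In the locked controls 5 of 10 members differed between the sexes, where 21.5% of all genes did. Selenop was higher in FC than in MC by 0.77 ± 0.15 (adjusted p = 5.54e-05), Gpx1 by 0.46 ± 0.11 (adjusted p = 0.00169) and Selenom by 0.36 ± 0.11 (adjusted p = 0.015), beside Gpx3. Txnrd1, the cytosolic thioredoxin reductase (chr10:82833951-82897712, plus strand), was lower by −0.38 ± 0.12 (adjusted p = 0.0152). Adipocyte and leukocyte markers were higher in FC than in MC by 1.59 and 1.03 in mean log2 and skeletal muscle markers lower by 0.45 (adjusted p = 0.014 for each, exact permutation tests), and fibroblast markers were 1992 to 3375 CPM in FC against 1002 to 1709 CPM in MC. By the same exact test erythroid markers were higher by 1.28 (adjusted p = 0.0262), slow fibre markers by 0.71 (adjusted p = 0.014) and liver markers by 2.55 (adjusted p = 0.0972). The part of these cells in the sex differences was not tested. Selenom lost its call without FC20 (adjusted p = 0.0575) or FC33 (adjusted p = 0.0526), and Txnrd1 without MC20 (adjusted p = 0.0526).

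The sex differences of the other strata were fewer. In running controls Gpx3 alone of 9 members was called, where 7.65% of all genes were, and Selenop (0.00, 95% interval −0.29 to 0.29) and Gpx1 (−0.02, 95% interval −0.24 to 0.21) were close to 0. In the locked mice labelled HuRm-/- Gpx3 and Selenop were called, which is 2 of 10 where 19.3% of all genes were. Selenop had 64.7, 116 and 156 CPM in FH against 61.6, 78.1 and 103 CPM in MH, a difference of 0.46 ± 0.14 (adjusted p = 0.0193), which was lost without FH14, FH17, FH19 or MH9 (adjusted p from 0.0529 to 0.0742). FH34 had the lowest Selenok of all 56 mice, at 51.0 CPM, and the lowest Gpx4, at 6.90 CPM. With all mice the difference FH minus MH was 0.16 for Selenok (adjusted p = 0.126) and 0.24 for Gpx4 (adjusted p = 0.307). Without FH34 it was 0.28 for Selenok, 0.45 for Gpx4 and 0.59 for Selenop. The values without FH34 are descriptions without a test, since leaving out a mouse picked for low Selenok and Gpx4 raises its group by construction. Summed adipocyte markers were 172 to 446 CPM in FH and 36.3 to 191 CPM in MH. In the mean log2 level over the genes, adipocyte markers were higher in FH by 1.89 (adjusted p = 0.0191). Fibroblast markers were higher by 0.84 (adjusted p = 0.014) and leukocyte markers by 0.71 (adjusted p = 0.0294), while skeletal muscle markers were lower by 0.43 (adjusted p = 0.0272). All are exact permutation tests, and the part of these cells in the differences was not tested. In the running mice labelled HuRm-/- Gpx3 alone of 9 members was called, where 5.57% of all genes were.

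**Figure D4:**
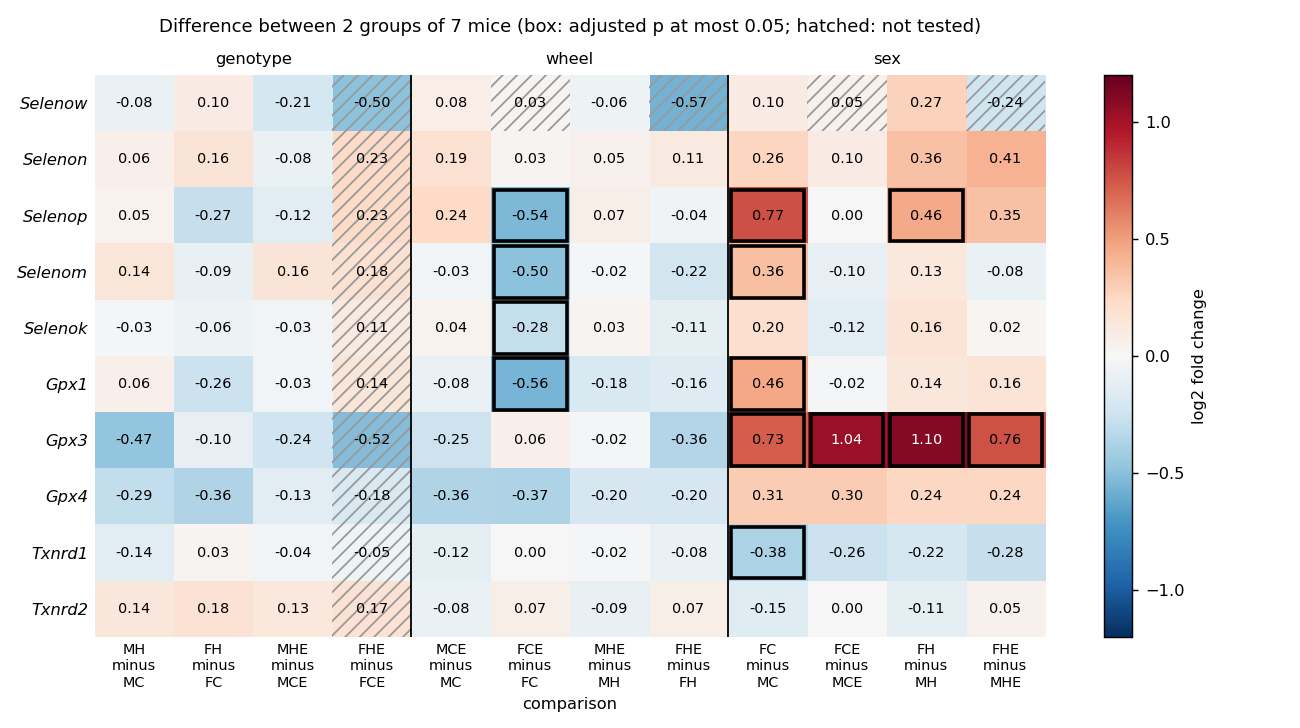
Log2 fold change (colour and printed value, red for higher in the group named before minus) of each member (vertical axis) in the 12 comparisons of 2 groups of 7 mice (horizontal axis), grouped as genotype, wheel and sex. A black box marks an adjusted p of at most 0.05 and hatching a value without a test. Boxes lie in FCE minus FC and in the 4 sex comparisons, where Gpx3 is boxed each time, and none lies among the genotype comparisons.

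Averaged over the 4 genotype and wheel strata, 6 of 9 members differed between the sexes, where 33% of all genes did. Gpx3 was higher in females by 0.91 ± 0.07 (adjusted p = 3.7e-15), and 20 of 28 females were above all 28 males. Selenop was higher by 0.39 ± 0.07 (adjusted p = 1.43e-05), with 13 females above all males. Gpx1 was higher by 0.19 ± 0.06 (adjusted p = 0.00718), with 0.46 in the locked controls and −0.02 to 0.16 in the other strata.

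Gpx4, which reduces phospholipid hydroperoxides in membranes (chr10:80047166-80056439, plus strand), was higher in females by 0.27 ± 0.08 (adjusted p = 0.00667), at 6.90, 15.2 and 28.9 CPM in females and 9.22, 11.9 and 16.8 CPM in males as lowest, median and highest. Selenon, the endoplasmic reticulum selenoprotein of the congenital myopathy (chr4:134537892-134552166, minus strand), was higher by 0.28 ± 0.08 (adjusted p = 0.00498), at 3.84, 5.28 and 7.16 CPM in females and 2.02, 4.40 and 7.29 CPM in males. Its largest single difference was FHE minus MHE, where 6 of 7 FHE mice were above all MHE mice, at 0.41 ± 0.15 (adjusted p = 0.105). Txnrd1 was lower in females by −0.28 ± 0.06 (adjusted p = 0.000103), at 20.3, 32.7 and 46.4 CPM in females and 31.8, 38.2 and 50.8 CPM in males. For these 3 genes the sexes overlapped widely.

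Averaged over the 4 sex and genotype strata, 3 of 9 members were lower with running, where 5.96% of all genes differed, 2.54% of all being lower and 3.42% higher. They were Gpx1 (−0.25 ± 0.06, adjusted p = 0.0036), Selenom (−0.19 ± 0.06, adjusted p = 0.0253) and Gpx4 (−0.28 ± 0.08, adjusted p = 0.026). Gpx4 was lower in all 4 strata without passing in any, by −0.36 ± 0.16 in control males, −0.37 ± 0.16 in control females, and −0.20 in both sexes of the mice labelled HuRm-/-. In control males it had 9.22, 11.2 and 14.7 CPM in MCE against 13.5, 14.6 and 16.8 CPM in MC, and 6 of 7 MCE mice were below all MC mice. For Gpx1 and Selenom the averages took most of their size from the control females. None of the 10 members was called in MHE minus MH, where 0.0419% of all genes were, and none of the 9 tested in FHE minus FH, where 3.85% were, by limma, the quasi-likelihood test or DESeq2, with 0 and 2 at an unadjusted p under 0.05.

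Txnrd2, the mitochondrial thioredoxin reductase (chr16:18426384-18479073, plus strand), was not called in any comparison. Its group medians ran from 9.70 CPM in FC to 12.2 CPM in MH, and the genotype average was 0.15 ± 0.06 with a 95% interval from 0.02 to 0.27 (adjusted p = 0.125). Copies of Selenok exist as pseudogenes, of which Selenok-ps1 is in the table with 238 counts over all mice and at most 17 in a mouse.

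In the single strata tested, genotype gave no call among these genes. None of the 10 members was called in MH minus MC, where 1.15% of all genes were, in FH minus FC, where 0.384% were, or in MHE minus MCE, where 2.63% were. At an unadjusted p under 0.05 there were 1, 2 and 1, and the quasi-likelihood test and DESeq2 called 0 in each. In FHE minus FCE 0% of all genes were called by limma, with 1806 at an unadjusted p under 0.05 and 77 called by DESeq2, and the members other than Selenow and Gpx3 lay between −0.18 for Gpx4 and 0.23 for Selenon and Selenop. None of the members tested was called in the interactions of genotype with wheel or sex, where 0% to 0.0349% of all genes were, or of wheel with sex in the mice labelled HuRm-/-, where 1.35% were. The median of the 10 members was −0.06 for the genotype average, −0.10 for the wheel average and 0.13 for the sex average, against 0.01, 0.01 and 0.00 for all genes tested.

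**Figure D5:**
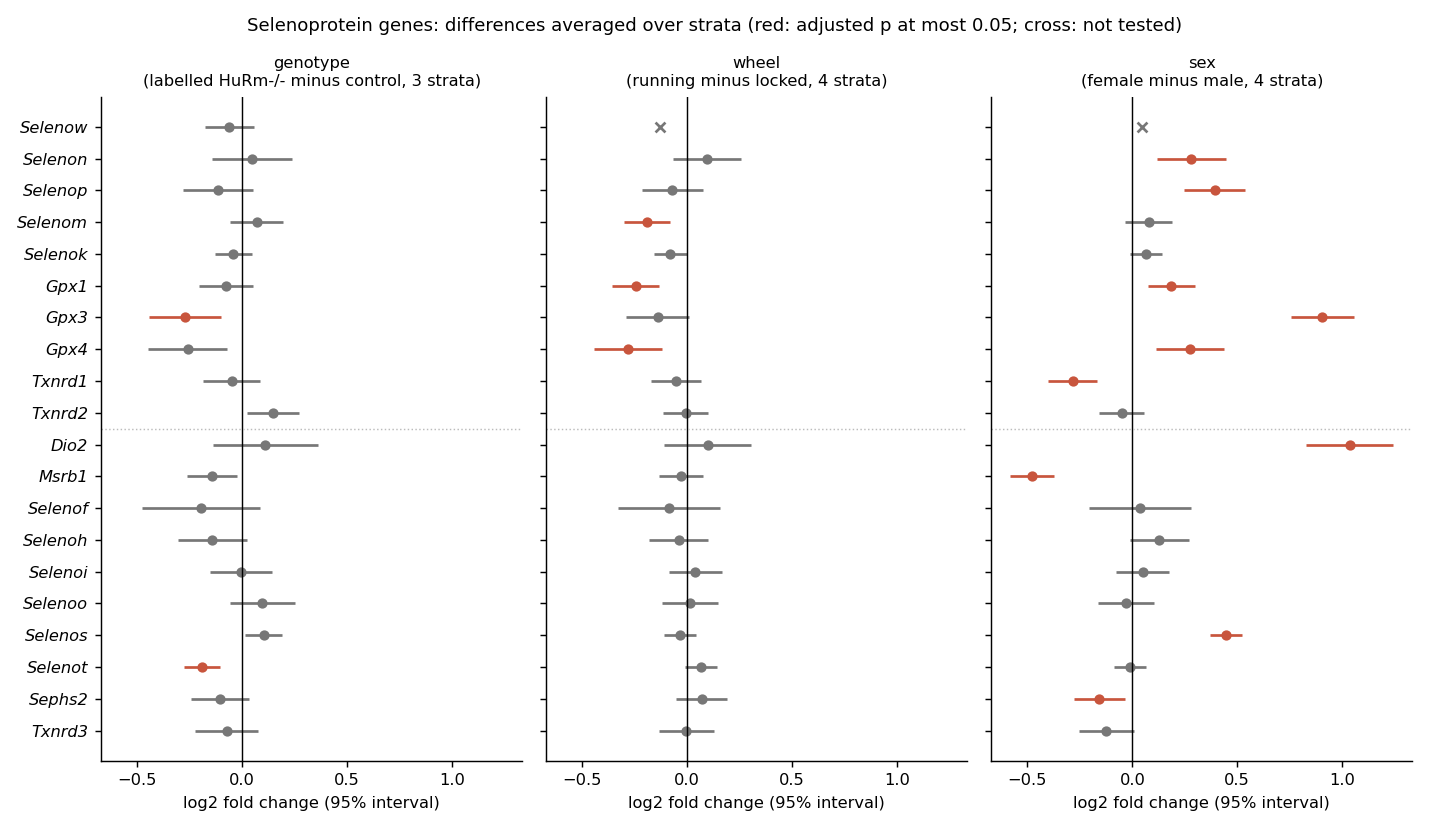
Log2 fold change with its 95% interval (horizontal axis) for the 10 members (upper rows) and 10 other selenoprotein genes (lower rows), averaged over 3 genotype, 4 wheel and 4 sex strata (panels from left to right). Red marks an adjusted p of at most 0.05 and a cross a value without a test. Gpx3 is red on the left and right, Gpx1, Gpx4 and Selenom are red in the middle panel, and the right panel has the most red, led by Dio2 at 1.04 and Gpx3 at 0.91.

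Beyond the 10 members, 10 further selenoprotein genes passed the filter (Dio2, Msrb1, Selenof, Selenoh, Selenoi, Selenoo, Selenos, Selenot, Sephs2 and Txnrd3), Dio3 did not, and Dio1, Gpx2 and Selenov were not analysed here. Between the sexes 2 were higher and 2 lower in females on average, where 33% of all genes differed. Dio2, the deiodinase that makes active thyroid hormone inside cells, had 1.76, 3.76 and 5.75 CPM in MC and 6.88, 9.56 and 12.4 CPM in FC, without overlap, and was higher by 1.04 ± 0.10 on average (adjusted p = 3.88e-12). Selenos, an endoplasmic reticulum protein of the degradation machinery, had 50.5, 56.6 and 65.0 CPM in MC and 74.8, 87.9 and 96.8 CPM in FC, again without overlap, and was higher by 0.45 ± 0.04 (adjusted p = 1.32e-14). Of all genes tested, 6.98% had no overlap between FC and MC.

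Msrb1, which reduces oxidised methionine, went the other way, at 86.0, 102.6 and 110.9 CPM in MC and 61.1, 70.6 and 81.0 CPM in FC, and was lower by −0.48 ± 0.05 (adjusted p = 7.85e-11). Dio2, Selenos and Msrb1 were called in all 4 sex strata, as Gpx3 was. Sephs2, which makes the selenium donor for selenocysteine, was lower by −0.16 (adjusted p = 0.0368). For the genotype average, where 10.3% of all genes were called, Selenot alone of the 10 was, at −0.19 ± 0.04 (adjusted p = 0.00192). It had 66.0, 71.4 and 75.0 CPM in MC against 55.7, 63.5 and 71.2 CPM in MH, and 64.8, 69.9 and 79.8 CPM in FC against 48.4, 61.1 and 66.5 CPM in FH. None of the 10 was called for the wheel average, where 5.96% of all genes were.

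Of 11 genes of the machinery that inserts selenocysteine and supplies selenium (Secisbp2, Secisbp2l, Eefsec, Pstk, Sepsecs, Sephs1, Trnau1ap, Scly, Lrp1, Lrp2 and Lrp8), all tested, none was called for the genotype or wheel average, where 10.3% and 5.96% of all genes were. In FCE minus FC, where 8.74% of all genes were called, 1 was lower, Lrp1 (−0.35, adjusted p = 0.0357). FC minus MC and FH minus MH each had 1 higher and 1 lower, where 21.5% and 19.3% of all genes were called. For the sex average, where 33% of all genes were called, Lrp1, an endocytic receptor of many ligands, was higher in females by 0.42 (adjusted p = 1.11e-08) and Trnau1ap, a partner of the selenocysteine tRNA, by 0.21 (adjusted p = 0.0283). Lrp8, a receptor for selenoprotein P, also passed (adjusted p = 0.0289) at very few counts, so its size is not given.

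Among 20 partner genes of the thioredoxin and glutathione systems, 5 were lower and none higher for the genotype average, where 10.3% of all genes were called, led by the methionine sulfoxide reductases Msrb2 (−0.42 ± 0.08, adjusted p = 0.000438) and Msrb3 (−0.33 ± 0.07, adjusted p = 0.000638) and the peroxiredoxins Prdx5 (−0.15, adjusted p = 0.0119) and Prdx1 (−0.15, adjusted p = 0.0196). For the wheel average, where 5.96% of all genes were called, Prdx2 was higher (0.14, adjusted p = 0.00382) and Prdx1 lower (−0.13, adjusted p = 0.0334). For sex, where 33% of all genes were called, 5 were higher and 6 lower in females, led by Msrb3 (−0.39), the endoplasmic reticulum peroxidase Gpx8 (0.54), and Gclc and Gclm, the subunits of the enzyme that starts glutathione synthesis (−0.38 each, adjusted p = 2.13e-06 and 4.18e-06). Of 10 genes listed as targets of NRF2, the transcription factor of the oxidative stress response, Ephx1 was higher in females (0.26, adjusted p = 0.000232) and Gclc, Gclm and Srxn1 (−0.34, adjusted p = 0.00588) were lower. Gstm1 was lower for both the genotype average (−0.20, adjusted p = 0.00783) and the wheel average (−0.15, adjusted p = 0.0363).

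Txnrd1 is itself an NRF2 target and was lower in females with Gclc, Gclm and Srxn1, so its promoter is shown. The core of the antioxidant response element, TGACNNNGC on either strand, was searched in RefSeq windows of 300 bases, from 250 before to 50 after each annotated start, on GRCm38.p6. It was found in 14.0% of 27025 genes, and in Txnrd1 and Selenok among the 10 members. Txnrd1 has 3 windows, and the match lies in chr10:82858956-82859255 (plus strand), on the minus strand with its leftmost base at −92 from the start, in capitals here.
Txnrd1 promoter: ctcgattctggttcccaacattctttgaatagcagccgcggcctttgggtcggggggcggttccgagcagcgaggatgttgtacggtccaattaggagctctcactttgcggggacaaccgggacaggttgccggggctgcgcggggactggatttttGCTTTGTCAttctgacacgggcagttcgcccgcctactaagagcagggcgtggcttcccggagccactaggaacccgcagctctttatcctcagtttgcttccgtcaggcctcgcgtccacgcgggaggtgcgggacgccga
Gclm and Srxn1 also had a match and Nqo1 had none, while Gclc had no window among those searched. A match says only that these letters are present.

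Among the genes whose log2 CPM was most like that of Selenow over the 56 mice were Eif3h (Pearson's r 0.76), Ndufb4 (0.73), Rexo2 (0.72) and Rps20 (0.71), out of 14320 genes compared and without removal of group means. Eif3h is a subunit of a translation initiation factor, Ndufb4 of respiratory complex I and Rps20 of the ribosome. Among the members the highest r was 0.67 between Selenop and Gpx1 and the lowest −0.46 between Selenom and Txnrd1. These values share libraries, normalization and the group differences described above.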

How the data were processed

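RNA of 56 gastrocnemius muscles was sequenced. The sample labels name a QuantSeq 3′ kit, the study's methods a stranded total RNA kit, and the counts do not settle it. The authors deposited raw counts per gene, as integers, for 15539 genes, and 15503 of these identifiers are found in GENCODE M21. The submitters' processing notes name GRCm38 (mm10), R 4.0.3 and edgeR 3.38.4, and the aligner and the strand setting of the counting are not given in the sources used here. Groups came from the labels, and every column matched a mouse. The labels do not say whether mice shared litters or cages.

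From these counts, TMM factors (edgeR 4.0.16), filterByExpr, voom and limma 3.58.1 in R 4.3.3 were fitted once over the 56 mice and 8 groups, with Benjamini-Hochberg adjustment over the 14321 genes in each comparison and a threshold of 0.05. TMM and limma are the study's methods. Averages and interactions are contrasts of the same fit. Log2 values for likeness used a prior count of 2. Marker lists were compared with exact permutation tests over mice, on the mean log2 level over the genes of a list and not on its summed CPM. The 10 members, the other gene lists and the comparisons were chosen with earlier results of these data known. Genes outside the members were named if called in an average over strata, at most 4 per list and comparison by adjusted p. The 5 genes most like Selenow were taken by r, of which 1 is not reported here, and Myl1 as a correlate and the genes most like other members were named after their values were seen.

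On simulated counts for MH minus MC with 14144 genes, the fit recovered 44 of 99 genes changed by 1.5-fold and 66 of 95 changed by 2-fold, with 9 false calls, so differences of the sizes seen here can be missed. In 168 pairs of mice within groups, the chi-square of the counts per degree of freedom was 3.55 to 49.8, so no pair agreed within sampling noise. Alternatives changed the scaling (size factors of DESeq2 1.42.0, upper quartile, other library sizes), the model (DESeq2, limma trend, the quasi-likelihood test of edgeR, weights for sample quality, a replicate block), the filter and the mice (smaller fits, each mouse left out). Leaving out FC15, FH19 and FH34, or the 7 mice labelled HuRm-/- with Myl1 in the control range, was added after the data were seen.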

Additional observations from a re-analysis of the deposited data

Results flagged for a closer look

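In 4 of 80 groups of 7 mice tested, 1 mouse stood apart by Dixon's criterion, a large gap to its neighbour as a share of the group's range on the log2 scale, which chance alone gives in about 5% of groups. Selenok in FH was lowest in FH34, at 51.0 CPM against 76.8 to 96.4 CPM in the other 6 mice (gap over range 0.642), and Gpx4 was lowest in the same mouse at 6.90 CPM (0.597). Gpx3 in FC was highest in FC20, at 401 CPM against 195 to 244 CPM in the others (0.690). Gpx4 in FCE was lowest in FCE1, at 8.11 CPM (0.570). Another 2 results were picked out because the wheel difference was not the same in control females as in control males by the interaction term: Selenop, at −0.78 on the log2 scale (adjusted p = 0.0104), and Gpx1, at −0.48 (adjusted p = 0.0482).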

How the results depend on the processing

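The direction of every tested member's averaged difference held under all settings except for Txnrd2 in the wheel average, near 0 throughout, which was −0.01 with all mice, 0.018 without FC15, FH19 and FH34 and −0.032 to 0.0083 with each mouse left out. Counts of members called moved by more than 1.5 times as follows, while FC minus MC had 6, not 5, with the quasi-likelihood test and DESeq2. MH minus MC had 1, not 0, without the 7 mice labelled HuRm-/- with Myl1 in the control range. This count is a description without a test, since the mice were chosen on Myl1. MCE minus MC had 1 in the fit of 28 mice and in the fit of the 2 groups alone. FHE minus FH had 1 with sample quality weights. FH minus MH had 4 with quality weights and 1 in the fit of the 2 groups alone, where Selenop was lost (adjusted p = 0.0761). It had 4 without FC15, FH19 and FH34 and 5 without those 7 mice. Both of these counts are descriptions without a test, since each leaves out FH34, a mouse picked for low Selenok and Gpx4. FHE minus MHE had 2 in the fit of 28 mice. The genotype average had 0 under upper-quartile normalization and DESeq2. It had 0 without FC15, FH19 and FH34, and 3 without the 7 mice. The latter counts are descriptions without a test, since the mice were left out after the data were seen. Leaving out the 7 mice tends to lower Selenow by construction. The interaction of wheel and sex in controls had 1 with DESeq2 size factors in voom or library sizes without mitochondrial genes and Gm42418, and 4 with the quasi-likelihood test, DESeq2, limma trend and quality weights. Leaving out each mouse gave 0 to 1 members in FHE minus FH, 4 to 6 in FC minus MC, 1 to 4 in FH minus MH, 0 to 3 in the genotype average, 3 to 4 in the wheel average, 6 to 7 in the sex average and 1 to 3 in that interaction, and the cause was not tested. Selenok in FCE minus FC was lost in the fit of 28 mice (adjusted p = 0.0609). Selenom lost its call in 1 setting for the wheel average (adjusted p = 0.0518) and in 1 setting for FC minus MC (adjusted p = 0.0783).

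Counts over all genes moved by more than 1.5 times between settings in MH minus MC (165, from 38 to 405), FH minus FC (55, from 0 to 181), MHE minus MCE (376, from 223 to 1037), MCE minus MC (464, to 1046), MHE minus MH (6, from 2 to 226), FHE minus FH (551, from 161), FH minus MH (2757, from 1737), the wheel average (854, to 1333) and the interaction of wheel and sex in mice labelled HuRm-/- (193, to 331). FHE minus FCE had 0 to 77. The interactions of genotype with wheel had 0 to 34 in males (5 as reported) and 0 to 2 in females, and those of genotype with sex 0 to 1 in locked and 0 to 4 in running mice (2 as reported).

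Mouse numbers are shared only between sexes. Over 12 pairs of same-numbered mice the correlation of deviations from group means ran from −0.20 to 0.18, with 5 over 0.1 and 3 where the mouse was most like its own number, so the numbers do not pair the mice. With the number as a replicate block (correlation 0.022) the counts of members called were those given above, but for 3 in place of 2 in the interaction of wheel and sex in controls.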

Other observations

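Genes around Selenon and the superoxide dismutases differed between groups in their own ways. Of the endoplasmic reticulum calcium partners of selenoprotein N, 4 of 5 listed were tested. For the genotype average, where 10.3% of all genes were called, 3 were higher in mice labelled HuRm-/-: the calcium release channel Ryr1 (0.25 ± 0.07, adjusted p = 0.0119), the slow fibre calcium pump Atp2a2 (0.29 ± 0.08, adjusted p = 0.0146) and the fast fibre pump Atp2a1 (0.18 ± 0.06, adjusted p = 0.0225). Selenon itself was 0.05 ± 0.10 in that average (adjusted p = 0.832). All 7 slow fibre markers, of which Atp2a2 is itself 1, were higher in the same average, with a median of 0.60. Atp2a1 is likewise in the list of fast fibre markers. The part of fibre types in the pump values was not tested. Between the sexes, where 33% of all genes were called, Ryr1 was lower in females by −0.39 (adjusted p = 2.84e-07) and Atp2a1 by −0.14 (adjusted p = 0.0159), while Atp2a2 was higher by 0.43 (adjusted p = 1.8e-06).

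Of the superoxide dismutases and catalase, Sod2, the mitochondrial enzyme, was lower for the genotype average (−0.14 ± 0.04, adjusted p = 0.00858) and higher for the wheel average (0.15 ± 0.03, adjusted p = 0.0014). Of all genes, 10.3% and 5.96% were called in these averages. Between the sexes, where 33% of all genes were called, the extracellular Sod3 was higher in females by 0.79 (adjusted p = 4.38e-10). The cytosolic Sod1 was lower by −0.24 (adjusted p = 2.04e-07) and Sod2 by −0.12 (adjusted p = 0.00204). Catalase was not called in any of the 3 averages. The secreted enzymes Gpx3 and Sod3 were thus both higher in females.

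The genes most like the secreted and cytosolic members over the 56 mice were of other kinds than those most like Selenow. For Selenop they were C3 (r 0.87), Fn1 (0.84), Cpq (0.82), Cyb5a (0.81) and Serpinf1 (0.81), for Gpx1 Trf (0.74), Apoe (0.74), Cyp2e1 (0.74), Cyp2c69 (0.72) and Hamp2 (0.71), and for Gpx3 Gstm2 (0.84), Ddx3x (0.84), Actc1 (0.83), Pcx (0.83) and Hmgn5 (0.80). C3, Fn1 and Serpinf1 encode secreted proteins, and Trf, Apoe, Cyp2e1 and Hamp2 are abundant in liver. These correlations are descriptions over mice that differ in sex. Summed liver markers reached 3260 CPM in FC15, where Gpx1 and Selenop were both the highest of all mice. The part of liver RNA in either gene was not tested.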
